A study of Mus musculus with 15 samples.

Results

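The comparison described here set 3 libraries of mouse C2C12 myotubes treated for 24 h with Jakyak-gamcho-tang (JGT) at 100 µg/mL against 3 libraries treated with vehicle. These 6 were chosen by their treatment labels from the 15 libraries of the series, and all 14461 genes with enough counts for a test, of 42807 in the table, were compared. C2C12 is a myoblast line that fuses into myotubes, and here it had been kept in differentiation medium for 6 days. JGT is an aqueous extract of peony and licorice roots. The vehicle group received 0.1% DMSO. The extract was dissolved at 10 mg/mL in 2% DMSO, so 100 µg/mL would carry 0.02% DMSO unless more was added. The remaining groups, of 3 libraries each, were non-treated myotubes and myotubes given 20 or 500 µg/mL, the highest dose having been set at 80% cell viability. No dexamethasone is named for any of these libraries, although the title of the series concerns muscle atrophy caused by it. The control libraries carry sample codes of another series than the JGT libraries, although the titles of all 15 carry the label Batch1. A difference from vehicle cannot be told apart from one between code series. The difference between 100 and 20 µg/mL is free of that limit. The labels do not say that the libraries of a group were separate cultures, so the p-values rest on variation between libraries that may be technical in origin.

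Plant extracts carry small aromatic and phenolic molecules. The aryl hydrocarbon receptor (AHR) binds such ligands and switches on enzymes that oxidise them, among them cytochromes P450 of family 1. NRF2 is a transcription factor held back by KEAP1 until electrophiles or oxidants release it, and it drives genes of glutathione, thioredoxin, NADPH and iron metabolism. Myotubes have left the cell cycle for good, while the mononucleated cells that remain beside them in a C2C12 culture can still divide.

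Calls rest on edgeR's quasi-likelihood test, at a p below 0.05 after Benjamini-Hochberg adjustment over all 14461 genes. At 100 µg/mL 302 genes rose (2.09% of those tested) and 321 fell (2.22%), together 623 (4.31%). Changes were mostly small: the median absolute log2 fold change of called genes was 0.276, and 23 genes rose and 1 fell by at least 1 on the log2 scale. The 3 JGT 100 libraries lay above the 3 vehicle libraries in all 302 risen genes and below them in 320 of the 321 that fell; over all tested genes, 13% were separated upwards and 13.3% downwards. The median log2 fold change of all tested genes was 0.00. Leaving out 1 library lowered the number of calls, to 401, 365 and 315 without vehicle replicates 1, 2 and 3 and to 357, 351 and 409 without JGT 100 replicates 1, 2 and 3. A fit of the 6 libraries alone called 1369 genes, which included 619 of the 623.

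The 3 libraries at 100 µg/mL held 32645341, 36854199 and 36580054 expected counts, and the vehicle libraries 29685983, 26012844 and 29613890.4. They are called J1 to J3 and V1 to V3 below, by replicate number. Mitochondrially encoded genes took 5.18 ± 0.181% of the counts at 100 µg/mL (SD, n = 3) and 4.88 ± 0.117% in vehicle. Myotube markers were present throughout: Myog, a factor of terminal differentiation, stood at 805, 814 and 803 CPM (counts scaled to library size) in vehicle and 875, 859.6 and 834 CPM at 100 µg/mL, with no called change (log2 fold change 0.08, standard error 0.0357, adjusted p = 0.235). Of the 11 tested myotube markers, 3 rose (Actn2, Tnnt3 and Casq1) and none fell, and their summed level was 17413 to 18320.0 CPM in vehicle and 18338 to 18899 CPM at 100 µg/mL. Of 21 markers of myoblasts, reserve and satellite cells, Spry1 and Hes1 rose and Tenm4, a teneurin, fell (-0.42). Of 6 osteoblast and chondrocyte markers 2 rose, Bglap2, an osteocalcin (0.41), and Spp1, and of 13 fibroblast markers 2 rose, Pdgfra, a receptor of platelet-derived growth factor (0.21), and Dcn. Their sums were 1169.7 to 1238 CPM in vehicle and 1322 to 1359 CPM at 100 µg/mL for the former and 5789.6 to 5920.3 CPM in vehicle and 5733 to 6144 CPM at 100 µg/mL for the latter. In non-treated libraries the sums were 1392, 1437 and 1359 CPM for osteoblast and chondrocyte markers and 5747, 6061 and 5885 CPM for fibroblast markers. The osteoblast and chondrocyte sums at 100 µg/mL were thus not above the non-treated ones. With 1 library left out, calls ended for Bglap2 (without V3 or J1, adjusted p = 0.0729 to 0.0776), Pdgfra (without V2, V3, J1, J2 or J3, adjusted p = 0.0636 to 0.174), Spp1 (without V1 or V3, adjusted p = 0.054 to 0.0603), Dcn (without V1, V3, J1 or J2, adjusted p = 0.05 to 0.0608), Tnnt3 (without V1, V2, V3 or J2, adjusted p = 0.0637 to 0.188) and Actn2 (without any of the 6, adjusted p = 0.0582 to 0.191). Another setting ended the calls of Pdgfra (DESeq2, adjusted p = 0.065) and Actn2 (library totals as scaling, adjusted p = 0.0639 and the replicate block, adjusted p = 0.0516). The summed markers of immune cells came to 4.38 to 5.25 CPM in vehicle and 4.63 to 5.42 CPM at 100 µg/mL, those of endothelial cells to 2.66 to 2.81 CPM in vehicle and 2.53 to 2.84 CPM at 100 µg/mL and those of epithelial cells to 9.74 to 10.7 CPM in vehicle and 9.69 to 11.03 CPM at 100 µg/mL, and none of the 10 tested members of these 3 lists was called. Adipoq, Cidec, Cfd and Ucp1, genes of adipocytes, were at 0 in the 6 libraries. The 7 tested adipocyte markers summed to 58.3 to 60.6 CPM in vehicle and 78.8 to 81.1 CPM at 100 µg/mL. Of these, 6 had a positive and 1 a negative change. Only Lpl was called, and its mean went from 27.0 to 45.8 CPM.

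Enzymes of the aryl hydrocarbon receptor battery were among the largest rises. Of the 14 tested members of that list (16 in all), 6 rose and 1 fell, with a median log2 fold change of 0.54. Cyp1b1, a cytochrome P450 that hydroxylates polycyclic aromatics and estrogens, lay at 56.8, 59.2 and 61.8 CPM in vehicle and 106, 107 and 101 CPM at 100 µg/mL. It rose 1.77-fold (log2 fold change 0.82, standard error 0.0457, adjusted p = 7.55e-10) and lies at chr17:79701537-79715061 (GRCm38), on the minus strand. Aldh3a1, an aldehyde dehydrogenase, went from 6.12, 5.79 and 6.20 CPM to 13.9, 15.2 and 13.02 CPM, a rise of 2.32-fold (log2 fold change 1.21, standard error 0.0875, adjusted p = 4.36e-08). Xdh, the xanthine dehydrogenase that makes uric acid, was at 6.96, 7.91 and 7.14 CPM in vehicle and 13.4, 12.3 and 12.9 CPM with JGT (log2 fold change 0.81, standard error 0.0732, adjusted p = 6.84e-07). For each of these 3 genes every treated library stood above every vehicle and JGT 20 library. Gsta1, a glutathione transferase (1.35, 1.31 and 1.15 CPM in vehicle, 2.46, 2.97 and 2.81 CPM at 100 µg/mL), rose with a log2 fold change of 1.12 and adjusted p = 0.00016. Ugt1a6a, a glucuronosyltransferase (0.53, adjusted p = 0.000715), and Fmo2, a flavin monooxygenase below 2 CPM (0.96, adjusted p = 0.0262), also rose. The receptor gene itself, Ahr, fell from 45.9, 48.4 and 46.9 CPM to 39.8, 41.7 and 41.6 CPM (log2 fold change -0.20, adjusted p = 0.0095). Ugt1a6a shares exons with other genes of its cluster, so its counts are uncertain. Leaving 1 library out ended the calls of Ahr (without V2 or J1, adjusted p = 0.0668 to 0.0703) and Fmo2 (without V1, V2, V3, J1 or J2, adjusted p = 0.053 to 0.149). In other fits calls ended for Fmo2 (DESeq2, adjusted p = 0.0539). Cyp1a1, the classical target of the receptor, was all but unread at this dose: 0, 0.0275 and 0.0276 CPM against 0, 0.0386 and 0 CPM in vehicle.

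The step from 20 to 100 µg/mL, which does not involve the control libraries, was also tested for these genes. In that comparison 43 genes were called higher (0.297% of those tested) and 19 lower (0.131%), and 4 of the 14 members of the receptor list were called higher. Those 62 calls became 19 to 41 with 1 library left out and 191 with the 6 libraries alone. Cyp1b1 was 1.56-fold higher at 100 than at 20 µg/mL (adjusted p = 1.13e-07), Aldh3a1 1.88-fold (adjusted p = 3.02e-06) and Xdh 1.48-fold (adjusted p = 0.000208). The step from 100 to 500 µg/mL was larger: 1309 genes were called higher (9.05%) and 1544 lower (10.7%). These 2853 became 4989 without JGT 500 replicate 2, 1880 without J2 and 1313 with the 6 libraries alone. Aldh3a1 gained a further 6.08-fold there, to 80.9, 94.7 and 80.2 CPM, and Cyp1b1 3.17-fold, to 336, 334 and 324 CPM.

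**Figure D1:**
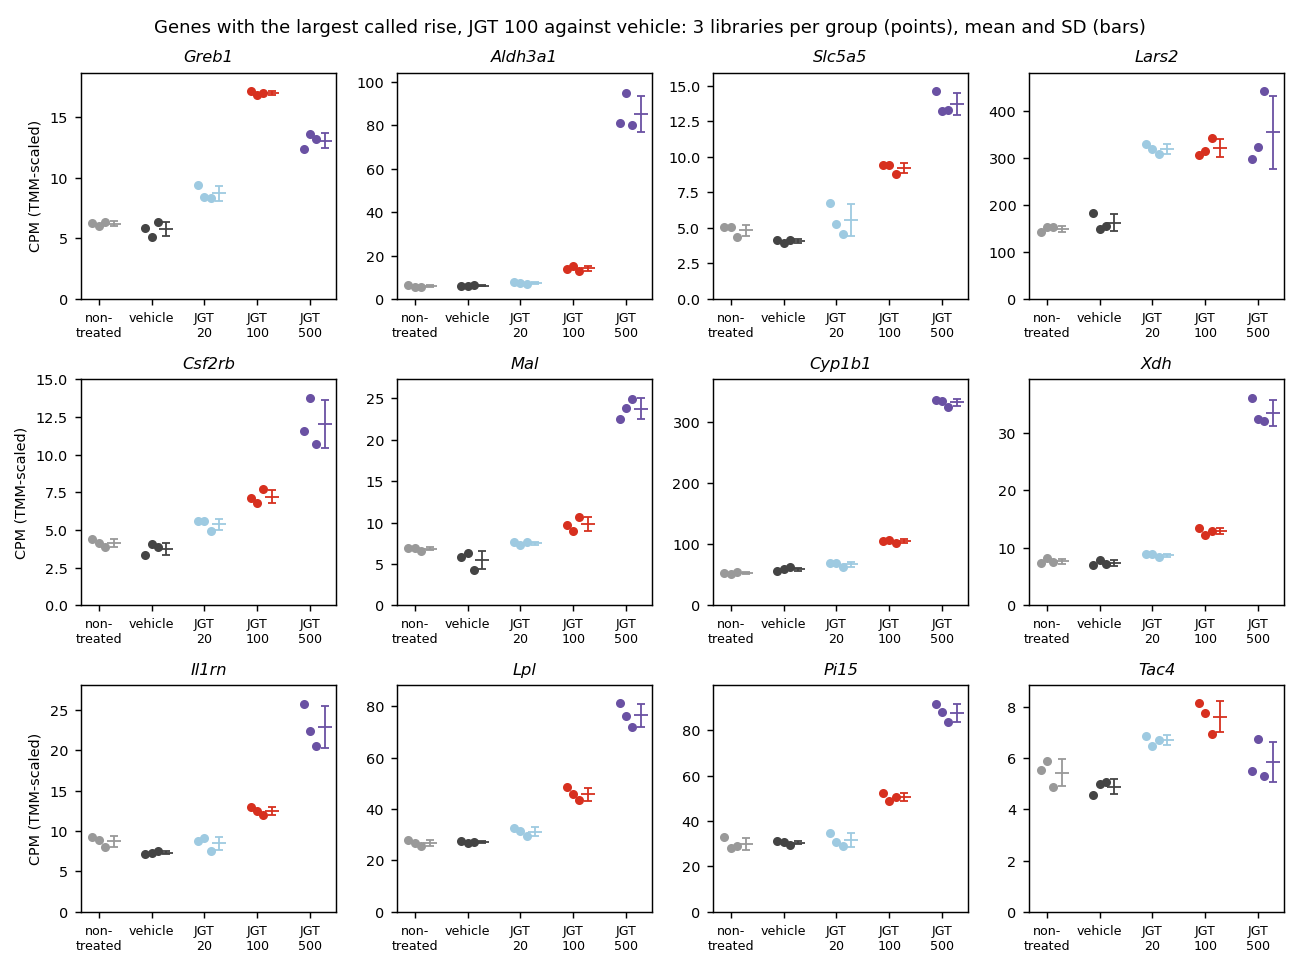
CPM (vertical axis, linear from 0, a scale for each gene) of 12 genes with the largest called rise at JGT 100 µg/mL among named nuclear genes of at least 5 CPM without overlap between the groups, in the 3 libraries of each of 5 groups (horizontal axis; points are libraries, bars the mean and SD). Every JGT 100 point lies above every vehicle point, as the choice required; Aldh3a1, Cyp1b1, Xdh and Mal climb further at JGT 500, Greb1 and Tac4 are lower there, and Lars2 is alike at the 3 doses.

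NRF2 targets rose as well, by smaller folds. Of 40 tested members (44 in all), 13 rose (32.5%, against 2.09% of all tested genes) and none fell, the median log2 fold change being 0.14. A positive change was seen in 37 of the 40. In the step from 20 to 100 µg/mL, which does not involve the control libraries, 2 of the 40 were called higher and none lower (median 0.11). Gstm1, a glutathione transferase, was at 36.3, 37.3 and 33.9 CPM in vehicle and 56.6, 55.05 and 54.7 CPM at 100 µg/mL (log2 fold change 0.63, standard error 0.0580, adjusted p = 8.91e-07). Fth1, the heavy chain of ferritin, which stores iron, went from 1336, 1389 and 1318 CPM to 1686, 1825 and 1772 CPM (log2 fold change 0.39, standard error 0.0438, adjusted p = 1.56e-05). Neither gene's groups overlapped. Other glutathione transferases that rose were Gsta4 (0.54) and Gstp1 (0.22), beside Gsta1 above, where the values are log2 fold changes. Members of this gene family resemble each other closely, so counts may be shared between them. Enzymes that make NADPH rose as well: Pgd (0.27) and G6pdx (0.24) of the pentose phosphate pathway and Me1 (0.31), malic enzyme. G6pdx overlaps Ikbkg on the other strand, and Ikbkg was also higher (0.47, adjusted p = 2.33e-07); the sources used here do not give whether counting used strand. Gclm, which makes up glutamate-cysteine ligase with a catalytic partner, rose by 0.25, Hmox1, heme oxygenase, by 0.39, and Aox1, an aldehyde oxidase, by 0.46 on the log2 scale. The sulfiredoxin gene Srxn1 (0.22) and the thioredoxin reductase gene Txnrd1 (0.14) changed least among those called. Nqo1, a quinone reductase often used to read NRF2, lay at 3.21, 4.67 and 4.25 CPM in vehicle and 5.32, 5.58 and 5.54 CPM at 100 µg/mL and missed the threshold (log2 fold change 0.45, adjusted p = 0.057), although it was called by DESeq2 (adjusted p = 0.0487) with the 6 libraries alone (0.0106) and without V2 (0.0429). Calls lost without single libraries were those of Gclm (without V3 or J3, adjusted p = 0.0535 to 0.0674), Srxn1 (without V1, V3, J1, J2 or J3, adjusted p = 0.0509 to 0.0978) and Txnrd1 (without V1, V3, J1, J2 or J3, adjusted p = 0.0564 to 0.0957).

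Promoter windows of RefSeq (GRCm38.p6, 250 bases before to 50 after a gene's start) were searched for the core of the antioxidant response element that NRF2 binds, TGACNNNGC, on both strands. Of the 13 risen members 11 had a window, and 6 of these 11 held a match (Srxn1, Gclm, Pgd, Me1, Txnrd1 and G6pdx). Counted by window, 6 of 17 matched (35.3%), against 12.4% of all 32851 windows and 14.3% of those of tested genes. The core of the dioxin response element, GCGTG, was in 2 of the 5 windows of risen receptor targets (40%), Gsta1 and Cyp1b1, and in 49.5% of windows of tested genes. A match is a description and not a bound site. List members that were not called were not searched, so the shares cannot be tied to the rise. Stretches of 30 bases around the match that begins before the annotated start are shown for 4 genes because these are the risen antioxidant genes with a match there; capitals mark the match, on either strand.
G6pdx: tgaggcgggtcaGCTCAGTCAaagcacacg
Gclm: gcgctcccgggcGCACCGTCAactctcacg
Me1: ccgatgccgccgTGACTCAGCgcttctcgc
Txnrd1: gactggatttttGCTTTGTCAttctgacac
They lie at chrX:74428920-74428949 (minus strand) for G6pdx, chr3:122245411-122245440 (plus strand) for Gclm, chr9:86695903-86695932 (minus strand) for Me1 and chr10:82859102-82859131 (plus strand) for Txnrd1. In G6pdx, Gclm and Txnrd1 the match is the reverse complement of the core as spelled above.

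The largest fold of the comparison among genes of at least 5 CPM was that of Greb1, a gene named for its growth response to estrogen in breast cancer cells. Greb1 (chr12:16670615-16800886, minus strand) lay at 5.82, 5.13 and 6.34 CPM in vehicle, 9.39, 8.37 and 8.36 CPM at 20 µg/mL and 17.2, 16.9 and 16.96 CPM at 100 µg/mL. It rose 2.94-fold (log2 fold change 1.56, standard error 0.0772, adjusted p = 1.76e-10), and the 3 treated libraries differed little from each other. Of 20 tested genes listed as responsive to estrogen (27 in all), only Greb1 and Igfbp4, a binding protein of insulin-like growth factors (0.38, adjusted p = 0.000875), rose, and Gper1, a membrane receptor for estrogen, fell (-0.27, adjusted p = 0.0262). The list's median was 0.03, and 10% of it was called higher and 5% lower, against 2.09% and 2.22% of all tested genes. Dependent on 1 library was the call of Gper1 (without any of the 6, adjusted p = 0.057 to 0.125).

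The remaining large rises fall to genes of varied function. Slc5a5, the sodium iodide symporter, went from 4.12, 3.93 and 4.15 CPM to 9.45, 9.40 and 8.80 CPM (log2 fold change 1.18, standard error 0.112, adjusted p = 1.4e-06). Lpl, the lipoprotein lipase that frees fatty acids from circulating triglyceride, went from 27.4, 26.6 and 27.03 CPM to 48.4, 45.6 and 43.4 CPM (log2 fold change 0.76, standard error 0.0546, adjusted p = 4.36e-08). Pi15, a secreted protein of the CAP family, went from 31.1, 30.7 and 29.6 CPM to 52.5, 48.9 and 50.5 CPM (log2 fold change 0.73, standard error 0.0622, adjusted p = 3.65e-07). In these 3 genes the treated libraries stood clear of all vehicle libraries, and each was also called higher at 100 than at 20 µg/mL (adjusted p = 0.00164, 5.07e-06 and 3.02e-06). Signalling genes of low level rose too: Csf2rb, the shared beta chain of the IL-3, IL-5 and GM-CSF receptors, by 0.94 on the log2 scale, Il1rn, the natural antagonist of interleukin 1, by 0.77, and Tac4, a tachykinin precursor, by 0.64. Mal, a proteolipid of membrane rafts, lay at 5.82, 6.36 and 4.31 CPM in vehicle and 9.66, 8.99 and 10.7 CPM with JGT (log2 fold change 0.84, standard error 0.103, adjusted p = 3.79e-05).

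Genes of mitosis fell as a group. All 52 list members were tested; 38 fell, none rose, and the log2 fold change was negative in all 52, with a median of -0.33. Anln, an actin-binding protein of the cleavage furrow, was at 65.8, 72.7 and 67.5 CPM in vehicle and 51.1, 52.1 and 54.4 CPM at 100 µg/mL (log2 fold change -0.39, standard error 0.0435, adjusted p = 1.37e-05). Ncapd2, a condensin subunit, went from 36.04, 36.3 and 36.3 CPM to 28.1, 28.4 and 29.2 CPM (log2 fold change -0.34, standard error 0.0396, adjusted p = 1.97e-05). Foxm1, a transcription factor of late cell cycle genes, went from 38.9, 40.7 and 39.1 CPM to 29.8, 29.1 and 30.8 CPM (log2 fold change -0.40, standard error 0.0510, adjusted p = 5.56e-05), and Ccna2, cyclin A2, from 43.2, 44.97 and 46.1 CPM to 35.8, 35.7 and 32.8 CPM (log2 fold change -0.36, standard error 0.0468, adjusted p = 6.35e-05). In none of these 4 genes did the groups overlap. Cdc20, an activator of the anaphase-promoting complex, fell from 22.4, 24.8 and 24.2 CPM to 17.2, 17.8 and 16.6 CPM (-0.47) and the proliferation marker Mki67 from 114, 113 and 111 CPM to 86.6, 91.5 and 91.99 CPM (-0.32, adjusted p = 0.000128). Cyclins and kinases of entry into mitosis fell by similar amounts, with log2 fold changes of -0.45 for Ccnb1, -0.34 for Plk1, -0.40 for Aurka and -0.31 for Cdk1, as did kinesins such as Kif11 (-0.39), Kif20a (-0.33) and Kif2c (-0.33) and centromere proteins such as Cenpa (-0.41) and Cenpf (-0.28). Depdc1a, a regulator of mitotic transcription and spindle function, fell by 0.46. With 1 library left out, the call ended for Depdc1a (without V1, V2, J1 or J2, adjusted p = 0.0602 to 0.101). Between 29 and 36 of the 52 genes were called when 1 library was left out. In bulk RNA, fewer dividing cells and less of these transcripts per cell cannot be told apart. The part of the myotube markers, of which 3 of 11 rose, in the fall of these genes was not tested.

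The groups formed a series for these genes. Averaged over the 52 members as a log2 ratio to the vehicle mean, the 3 JGT 100 libraries stood at -0.32, -0.30 and -0.34, the JGT 20 libraries at -0.12, -0.11 and -0.14 and the JGT 500 libraries at -1.19, -1.14 and -1.16. Non-treated libraries stood above vehicle, at 0.20, 0.24 and 0.22. In the tests, 3 members were lower at 100 than at 20 µg/mL, and all 52 were lower at 500 than at 100 µg/mL. Against non-treated myotubes, where 621 genes were called higher (4.29%) and 699 lower (4.83%), 50 of the 52 were lower at 100 µg/mL. Vehicle itself was lower than non-treated in 20 of them, against 0.754% of all tested genes called lower and 0.553% called higher in that comparison. Vehicle and 100 µg/mL may also differ in DMSO, and its part in these values was not tested.

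**Figure D2:**
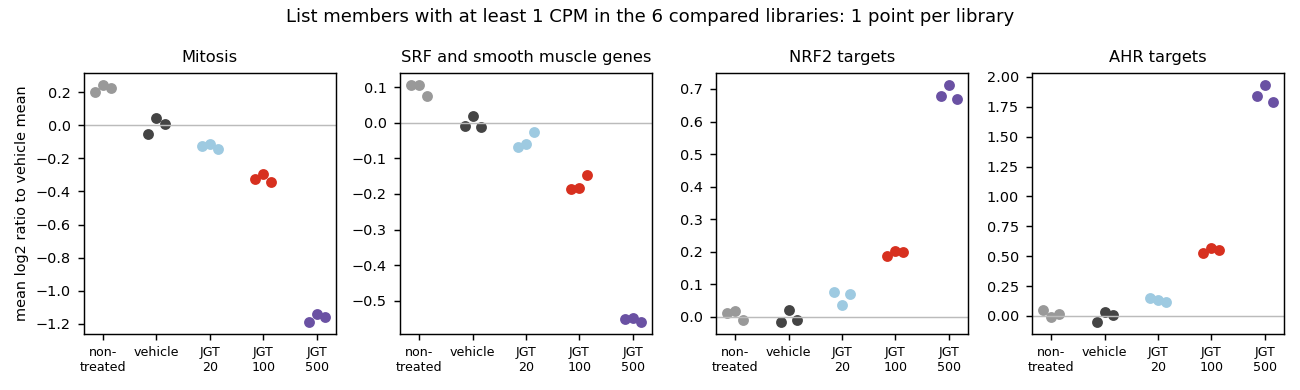
Mean log2 ratio to the vehicle mean (vertical axis) over the members of 4 gene lists with at least 1 CPM in the 6 compared libraries, 1 point per library in 5 groups (horizontal axis). The mitosis list lies at -0.32, -0.30 and -0.34 at JGT 100 and the aryl hydrocarbon receptor (AHR) list at 0.53, 0.57 and 0.55, between the JGT 20 and JGT 500 libraries in both.

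Late cell cycle genes are known to share a short promoter element, the cell cycle homology region, TTTGAA. It was found on either strand in 28 of the 34 windows (82.4%) of the fallen mitosis genes, which covered 33 of the 38 genes, and in 17.9% of all windows and 11.9% of those of tested genes. The mitosis list is made of such late cell cycle genes, and its members that were not called were not searched. The share therefore describes genes of this kind and cannot be tied to their fall. In the 27 genes with a match, the match nearest to the start began between 123 bases before it (an offset of -123) and 40 after, with a median of 6 bases after. The stretches shown are those of the 9 fallen genes whose nearest match begins before the start, with the match in capitals.
Cdc20: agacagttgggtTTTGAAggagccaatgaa
Cdk1: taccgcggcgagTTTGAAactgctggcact
Depdc1a: cgctcggagataTTCAAAtcagcagcgcgg
Espl1: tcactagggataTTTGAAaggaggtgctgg
Kif11: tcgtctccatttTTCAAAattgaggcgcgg
Kif2c: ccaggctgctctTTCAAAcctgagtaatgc
Mki67: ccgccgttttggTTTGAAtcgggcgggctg
Ncapd2: cagccgttgaggTTTGAAcagggaattgcg
Top2a: gctagataaaggTTCAAAtgaaactaggga
Their positions in GRCm38.p6 are chr4:118437344-118437373 (minus strand) for Cdc20, chr10:69352910-69352939 (minus strand) for Cdk1, chr3:159495405-159495434 (plus strand) for Depdc1a, chr15:102296254-102296283 (plus strand) for Espl1, chr19:37376351-37376380 (plus strand) for Kif11, chr4:117178858-117178887 (minus strand) for Kif2c, chr7:135716460-135716489 (minus strand) for Mki67, chr6:125191692-125191721 (minus strand) for Ncapd2 and chr11:99024195-99024224 (minus strand) for Top2a. In Depdc1a, Kif11, Kif2c and Top2a the reverse complement is present. The presence of the element is a description, and nothing about the factors that bind it was measured.

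Fewer genes of DNA replication were called. Of 43 members, all tested, 6 fell and none rose (median log2 fold change -0.14): the helicase subunits Mcm5 (-0.30) and Mcm6 (-0.21), the polymerase Pole (-0.31), the GINS subunit Gins2 (-0.32), the methylation reader Uhrf1 (-0.27) and the ribonucleotide reductase subunit Rrm2 (-0.14). Leaving 1 library out ended the calls of Gins2 (without V2, V3, J1 or J2, adjusted p = 0.0562 to 0.12), Mcm6 (without V1, V2, V3, J1 or J2, adjusted p = 0.0794 to 0.156), Rrm2 (without V2, V3, J1, J2 or J3, adjusted p = 0.0636 to 0.146) and Uhrf1 (without V2, V3, J2 or J3, adjusted p = 0.0652 to 0.129). A change of method ended the call of Rrm2 (no count filter, adjusted p = 0.0852). Without vehicle replicates 2 or 3 the count was 2, without JGT 100 replicates 1 or 2 it was 3 and 2, and with the 6 libraries alone it was 13. Among 28 tested regulators of the G1 phase, E2f2, an activator, rose (0.26, adjusted p = 0.00168) and E2f7, a repressor, fell (-0.37, adjusted p = 0.011). That is 3.57% each way, near the 2.09% higher and 2.22% lower of all tested genes. A call lost without single libraries was that of E2f7 (without V2 or J1, adjusted p = 0.0681 to 0.0811). Cdkn1a, the cyclin-dependent kinase inhibitor p21, was at 1706, 1649 and 1610.0 CPM in vehicle and 1740.0, 1729 and 1756 CPM at 100 µg/mL (log2 fold change 0.07, standard error 0.0358, adjusted p = 0.325). Of 25 tested p53 targets, the growth arrest genes Gadd45a (0.36) and Gadd45b (-0.36) were called, in opposite directions (4% each way, also near the shares of all tested genes). None of 16 tested replication histone genes was called.

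Actin-cytoskeleton genes, many of them targets of serum response factor (SRF), fell. Of 27 tested members (30 in all) 15 fell (55.6%, against 2.22% of all tested genes) and none rose, with a median of -0.17. In the step from 20 to 100 µg/mL 3 of the 27 were called lower, against 0.131% of all tested genes, and none higher. Tagln, transgelin of smooth muscle, went from 308, 304 and 297 CPM in vehicle to 236, 225 and 236 CPM (log2 fold change -0.38, standard error 0.0411, adjusted p = 6.66e-06). Actg2, smooth muscle gamma actin, went from 60.6, 65.5 and 62.1 CPM to 45.8, 41.7 and 49.6 CPM (log2 fold change -0.46, standard error 0.0557, adjusted p = 3.5e-05). Csrp1, a LIM-domain protein, went from 176, 187 and 184 CPM to 144, 139 and 139 CPM (log2 fold change -0.37, standard error 0.0481, adjusted p = 6.92e-05). The groups did not overlap in any of the 3. Fhl2, a LIM-domain coactivator, fell by 0.45 and Ctgf, a matricellular growth factor, by 0.42 on the log2 scale. Acta2, smooth muscle alpha actin, fell by 0.23, and the cytoplasmic actins Actg1 and Actb fell by 0.26 and 0.18, so Actb, often used as a reference gene, was not constant here. Gapdh, the other common reference, was not called (0.05, adjusted p = 0.633). The count of 15 became 8 without vehicle replicate 2 and 9 without vehicle replicate 3 or JGT 100 replicate 3. Dependent on 1 library was the call of Actb (without V2, adjusted p = 0.054). Srf itself was not called (-0.14, adjusted p = 0.0773; with the 6 libraries alone, 0.00773). Actg2 was already lower in vehicle than in non-treated libraries (82.8, 86.5 and 82.2 CPM; log2 difference -0.42, adjusted p = 0.000943).

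In the extracellular matrix, falls outnumbered rises. Of 53 tested matrix proteins, proteases and crosslinkers (62 in all), 8 fell (15.1%) and 4 rose (7.55%), against 2.22% and 2.09% of all tested genes. Tnc, tenascin C, a matricellular protein of developing and injured tissue, went from 839, 831 and 859 CPM to 661, 637 and 729 CPM (log2 fold change -0.32, standard error 0.0453, adjusted p = 0.000202). Timp3, an inhibitor of metalloproteinases, went from 468, 485 and 488 CPM to 380.5, 379 and 404 CPM (log2 fold change -0.31, standard error 0.0365, adjusted p = 2.37e-05). Both were lower at 100 than at 20 µg/mL, with adjusted p = 0.00134 and 0.0151. Thbs2, thrombospondin 2, moved the other way, from 173, 168 and 176 CPM to 257, 231 and 254 CPM (log2 fold change 0.52, standard error 0.0414, adjusted p = 1.68e-07), with no overlap. The metalloproteinase genes Adamts1 (-0.26) and Adamts5 (-0.21) fell. Fmod, fibromodulin, which binds collagen fibrils, fell from 14.2, 14.5 and 13.2 CPM to 9.60, 10.4 and 8.49 CPM (-0.55). Spp1, osteopontin (0.18), Dcn, decorin (0.27), and Mmp19, a matrix metalloproteinase (0.25), were the other rises. Of 28 tested collagen genes (35 in all), Col18a1 (-0.39), Col8a2 (-0.29) and Col4a1 (-0.15) fell and Col24a1 (0.88) and Col13a1 (0.61), both below 6 CPM, rose. That is 10.7% lower and 7.14% higher, against 2.22% and 2.09% of all tested genes. With 1 library left out, calls ended for Spp1 (without V1 or V3, adjusted p = 0.054 to 0.0603), Mmp19 (without any of the 6, adjusted p = 0.0586 to 0.227), Dcn (without V1, V3, J1 or J2, adjusted p = 0.05 to 0.0608), Col8a2 (without V1, V3, J1 or J2, adjusted p = 0.107 to 0.162), Col4a1 (without V1, V2, V3, J1 or J2, adjusted p = 0.0631 to 0.145) and Col13a1 (without V2, V3, J1 or J2, adjusted p = 0.0583 to 0.115).

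**Figure D3:**
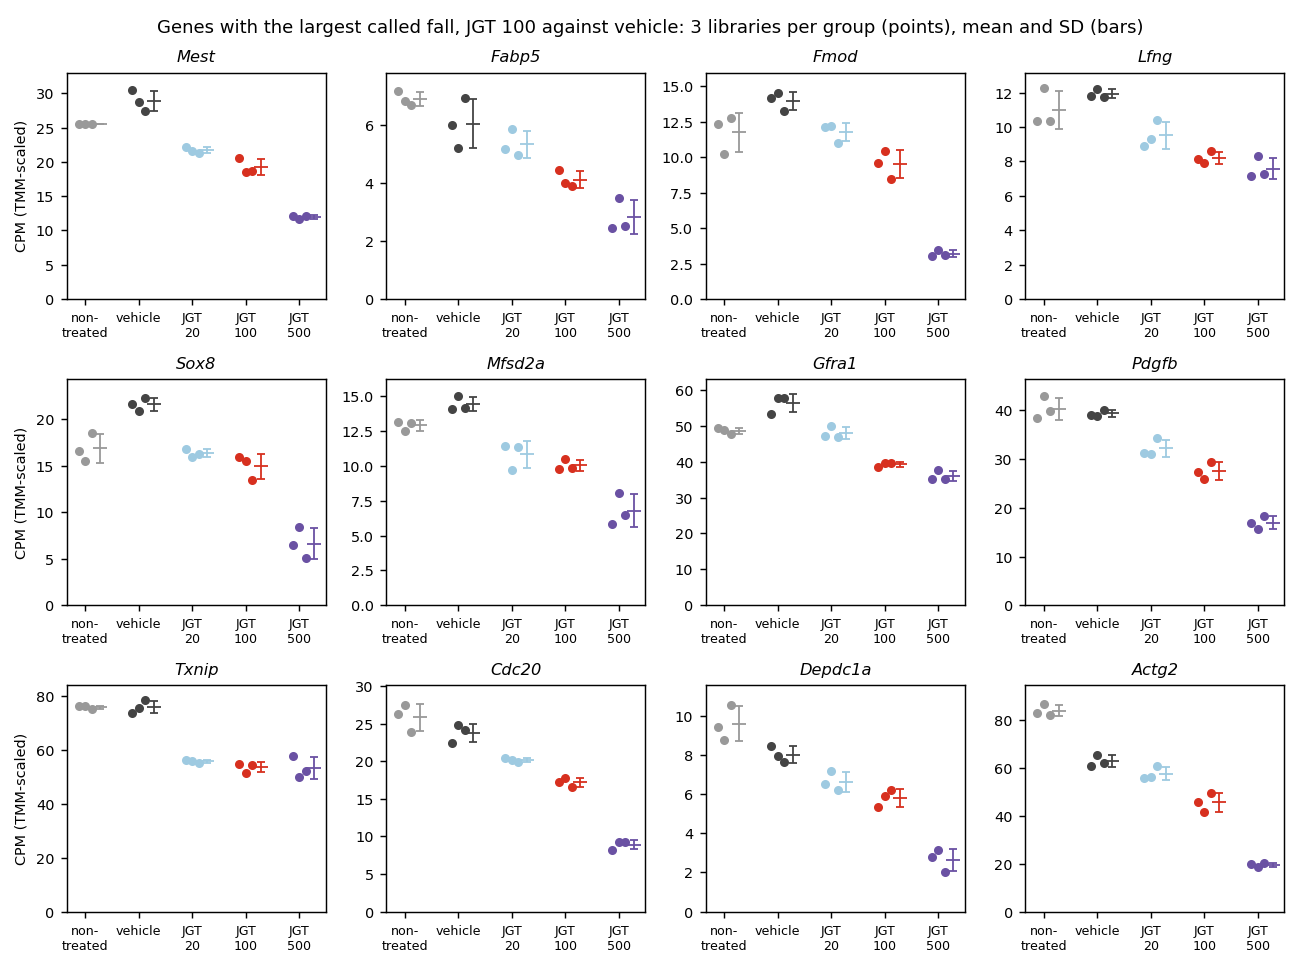
CPM (vertical axis, linear from 0, a scale for each gene) of 12 genes with the largest called fall at JGT 100 µg/mL among those of at least 5 CPM without overlap between the groups, in the 3 libraries of each of 5 groups (horizontal axis; points are libraries, bars the mean and SD). Every JGT 100 point lies below every vehicle point, as the choice required; Txnip and Lfng are at about the same level at 500 as at 100 µg/mL, while Actg2, Fmod, Sox8 and Cdc20 are lower still at 500.

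The 12 largest falls among genes of at least 5 CPM ranged from -0.46 to -0.59 on the log2 scale, and they included developmental and signalling genes. Mest, an imprinted gene of mesoderm, was at 30.5, 28.7 and 27.5 CPM in vehicle and 20.6, 18.6 and 18.7 CPM at 100 µg/mL (log2 fold change -0.59, standard error 0.0524, adjusted p = 6.63e-07). Gfra1, the receptor subunit that binds the neurotrophic factor GDNF, went from 53.3, 57.8 and 57.6 CPM to 38.6, 39.6 and 39.5 CPM (log2 fold change -0.52, standard error 0.0440, adjusted p = 3.16e-07) and was also lower at 100 than at 20 µg/mL (adjusted p = 0.00228). Pdgfb, a platelet-derived growth factor chain, went from 38.98, 38.9 and 40.1 CPM to 27.3, 25.9 and 29.4 CPM (log2 fold change -0.52, standard error 0.0595, adjusted p = 1.96e-05). The groups did not overlap in any of them, as the choice of the 12 required. Sox8, a transcription factor of satellite cells, fell by 0.53 on the log2 scale. The lipid carriers Mfsd2a, which takes up lysophosphatidylcholine, and Fabp5, which binds fatty acids, fell by 0.52 and 0.56. Sox8 was at 21.6, 20.9 and 22.3 CPM in vehicle, 16.6, 15.5 and 18.5 CPM in non-treated and 16.0, 15.5 and 13.5 CPM at 100 µg/mL. Against non-treated libraries it was not called at 100 µg/mL (log2 difference -0.17, adjusted p = 0.405). Leaving 1 library out ended the calls of Sox8 (without V3, adjusted p = 0.0538) and Fabp5 (without V3, J2 or J3, adjusted p = 0.0512 to 0.0959).

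Txnip, which binds thioredoxin and holds glucose transporters off the membrane, stood at much the same lower level at all 3 doses. It lay at 73.8, 75.6 and 78.5 CPM in vehicle, 56.3, 55.8 and 55.4 CPM at 20, 54.9, 51.5 and 54.3 CPM at 100 and 57.9, 49.96 and 52.03 CPM at 500 µg/mL. The fall from vehicle at 100 µg/mL was to 0.705 of the vehicle level (log2 fold change -0.50, standard error 0.0470, adjusted p = 1.06e-06), and no difference was called between 100 and 20 µg/mL (log2 difference -0.06, standard error 0.0474) or between 500 and 100 µg/mL (-0.01, standard error 0.0475). Of the 22 tested genes of its list (24 in all), Arrdc3, a related arrestin (0.28), the hexokinases Hk2 (0.24) and Hk1 (0.13) and the glucose transporter gene Slc2a1 (0.18) rose. Slc2a1, Hk1 and Hk2 belong to the hypoxia and glycolysis list too, of which 7 of 38 members rose and none fell (median 0.08); the others were Egln3, a prolyl hydroxylase (0.29), Bnip3, a mitophagy receptor (0.26), Mxi1, a MYC antagonist (0.21), and Vegfa, the angiogenic factor (0.13). Against non-treated myotubes 3 members of that list were higher at 100 µg/mL and 5 lower (median -0.02), and vehicle was lower than non-treated in 2 (median -0.08). Calls lost without single libraries were those of Hk1 (without V1, V3, J1, J2 or J3, adjusted p = 0.0748 to 0.153), Slc2a1 (without V1, V3 or J3, adjusted p = 0.0502 to 0.057), Mxi1 (without V1, V3, J1 or J2, adjusted p = 0.0643 to 0.111) and Vegfa (without any of the 6, adjusted p = 0.0583 to 0.222). Another setting ended the calls of Hk1 (library totals as scaling, adjusted p = 0.0595) and Vegfa (library totals as scaling, adjusted p = 0.0515 and the replicate block, adjusted p = 0.0572).

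Most genes of the myotube itself were not called. Of 53 tested sarcomere genes 5 rose (9.43%, against 2.09% of all tested genes) and none fell, with a median of 0.07. They were Myom3, a myomesin of the M-band (0.17), Tnnt3, fast troponin T (0.18), Myh2, a fast myosin heavy chain (0.22), Actn2, alpha-actinin of the Z-disc (0.14), and Smpx, a small costamere protein (0.15). The count was 0 without vehicle replicate 2, vehicle replicate 3 or JGT 100 replicate 2, 1 without JGT 100 replicate 3, 2 without vehicle replicate 1 and 3 without JGT 100 replicate 1, and 18 rose and 2 fell in the fit of the 6 libraries alone. Dependent on 1 library were the calls of Myom3 (without V2, V3, J2 or J3, adjusted p = 0.0656 to 0.153), Tnnt3 (without V1, V2, V3 or J2, adjusted p = 0.0637 to 0.188), Myh2 (without V2, V3, J2 or J3, adjusted p = 0.106 to 0.156), Actn2 (without any of the 6, adjusted p = 0.0582 to 0.191) and Smpx (without any of the 6, adjusted p = 0.0933 to 0.191). In other fits calls ended for Actn2 (library totals as scaling, adjusted p = 0.0639 and the replicate block, adjusted p = 0.0516) and Smpx (library totals as scaling, adjusted p = 0.0699 and the replicate block, adjusted p = 0.0612). The embryonic myosin gene Myh3 was at 3875, 3524 and 3474 CPM in vehicle and 3455, 3661 and 3782 CPM with JGT (log2 fold change 0.00, standard error 0.0658, adjusted p = 0.991). Myh4 (-0.11, adjusted p = 0.162; with the 6 libraries alone, 0.0358) and Myh7 (-0.06, adjusted p = 0.719), a fast and the slow myosin heavy chain, and the myogenic factor Myod1 (0.06, adjusted p = 0.407) were not called either. Of 26 tested myogenic factors only Sox8 was called, and not against non-treated libraries. That is 3.85% lower, near the 2.22% of all tested genes. Casq1, the calcium store protein calsequestrin (0.21), and Scn4a, the muscle sodium channel (0.21), were among the genes of excitation and calcium handling that rose. With 1 library left out, the call ended for Scn4a (without V2, J2 or J3, adjusted p = 0.05 to 0.0759).

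Genes of muscle wasting were examined because the series concerns atrophy. Fbxo32, the ubiquitin ligase atrogin-1, was at 90.5, 87.6 and 90.9 CPM in vehicle and 109, 106 and 110.4 CPM at 100 µg/mL and rose (log2 fold change 0.27, standard error 0.0371, adjusted p = 0.000118). Trim63, the ligase MuRF1, was at 30.6, 30.7 and 29.96 CPM and 30.4, 30.6 and 30.6 CPM (log2 fold change 0.01, standard error 0.0557, adjusted p = 0.981). The groups of Fbxo32 did not overlap and those of Trim63 did. Of 26 tested members of the atrophy list, Fbxo40, a muscle F-box protein (0.34), and Bnip3 (0.26) also rose, and Foxo1, a transcription factor of the atrophy programme, fell (-0.22, adjusted p = 0.00493). With Fbxo32, 11.5% of the list rose and 3.85% fell, against 2.09% and 2.22% of all tested genes. Of 25 tested glucocorticoid targets 6 rose and 1 fell, with a median of 0.03: Fbxo32, Gadd45a, Hsd11b1, which makes active glucocorticoid (0.40, adjusted p = 0.000689), Errfi1, an inhibitor of the EGF receptor (0.27), Glul, glutamine synthetase (0.15), and Cebpd, a transcription factor (0.26), rose and Foxo1 fell. Fkbp5, one of the most used reporters of the glucocorticoid receptor, lay at 25.4, 24.1 and 26.6 CPM in vehicle and 23.8, 23.6 and 26.3 CPM with JGT (log2 fold change -0.05, standard error 0.0748, adjusted p = 0.839). The receptor gene Nr3c1 (-0.08, adjusted p = 0.367) and Klf15 (0.06, adjusted p = 0.972), below 0.5 CPM, were not called. Leaving 1 library out ended the calls of Glul (without V1, V2, V3, J1 or J2, adjusted p = 0.082 to 0.209) and Cebpd (without any of the 6, adjusted p = 0.0792 to 0.206). A change of method ended the calls of Glul (library totals as scaling, adjusted p = 0.0515) and Cebpd (library totals as scaling, adjusted p = 0.0572). Of 23 tested junction and denervation genes, Gadd45a and Chrnd, the delta subunit of the acetylcholine receptor (0.19), rose, and Hdac9, a histone deacetylase (-0.30), and Colq, the collagen tail of acetylcholinesterase (-0.29), fell. That is 8.7% each way, against 2.09% higher and 2.22% lower of all tested genes. A call lost without single libraries was that of Chrnd (without V2, V3 or J2, adjusted p = 0.0533 to 0.0763).

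Secreted growth regulators moved in both directions. Inhbb, a subunit of activin B, went from 73.5, 74.05 and 75.03 CPM to 101, 98.5 and 103 CPM (log2 fold change 0.44, standard error 0.0346, adjusted p = 1.61e-07), while Fst, follistatin, which traps activins and myostatin, went from 149, 138 and 142 CPM to 112, 115 and 117 CPM (log2 fold change -0.32, standard error 0.0636, adjusted p = 0.00686). Grem1, gremlin, an antagonist of bone morphogenetic proteins, went from 170.2, 167 and 169.8 CPM to 257, 256 and 255 CPM (log2 fold change 0.60, standard error 0.0479, adjusted p = 1.68e-07) and was the only one of 22 tested genes of the BMP list to be called (4.55%, near the 2.09% of all tested genes called higher). These 3 genes had no overlap between the groups. In the list of insulin-like growth factors, myostatin and myokines, 5 of 33 tested genes rose (15.2%) and 6 fell (18.2%), against 2.09% and 2.22% of all tested genes. Igfbp4, Dcn, Fndc5, the irisin precursor (0.24), and Igfbp6 (0.17) rose beside Inhbb. Igfbp3 (-0.41), Fstl3 (-0.19), Fstl1 (-0.14), Irs1, an adaptor of the insulin receptor (-0.20), and Igf1 fell beside Fst. Igf1 was at 47.6, 49.3 and 49.6 CPM in vehicle and 40.3, 41.1 and 41.1 CPM at 100 µg/mL (log2 fold change -0.26, adjusted p = 0.0129). Non-treated libraries had 45.0, 38.4 and 44.6 CPM of Igf1, and no difference from them was called at 100 µg/mL (-0.06, adjusted p = 0.595). Mstn, myostatin itself, had at most 2 counts in any of the 6 libraries and was not tested. Dependent on 1 library were the calls of Fndc5 (without V1, V3, J1 or J2, adjusted p = 0.0557 to 0.0776), Igfbp6 (without V1, V3, J2 or J3, adjusted p = 0.0539 to 0.0687), Fstl3 (without J1, adjusted p = 0.0598), Fstl1 (without V3, J1 or J2, adjusted p = 0.0618 to 0.108), Irs1 (without V3, J1 or J3, adjusted p = 0.0963 to 0.185), Igf1 (without V2, V3, J1 or J2, adjusted p = 0.0531 to 0.0739) and Dcn (without V1, V3, J1 or J2, adjusted p = 0.05 to 0.0608). By count, 2 to 5 rose and 2 to 6 fell over these fits.

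In the Notch pathway (24 tested genes of 29) 5 genes fell (20.8%) and 1 rose (4.17%), against 2.22% and 2.09% of all tested genes. Lfng, a sugar transferase that modifies Notch, went from 11.8, 12.2 and 11.8 CPM to 8.12, 7.92 and 8.61 CPM (log2 fold change -0.54, standard error 0.0841, adjusted p = 0.000605). The ligands Dll1 (-0.29) and Jag1 (-0.23), the receptor Notch1 (-0.20) and the coactivator Maml1 (-0.19) also fell, whereas the target Hes1 rose from 34.99, 35.4 and 34.2 CPM to 41.2, 45.5 and 45.5 CPM (log2 fold change 0.34, standard error 0.0517, adjusted p = 0.000475). Against non-treated myotubes, by contrast, only 1 member of the Notch list was lower at 100 µg/mL and 3 were higher (median -0.025). No member was called between 100 and 20 µg/mL. Of 31 tested genes of the Wnt pathway 4 fell (12.9%): the receptors Lgr5 (-0.42) and Fzd4 (-0.26), the ligand Wnt9a (-0.23) and the target Wisp1, which went from 404, 402 and 404 CPM to 315, 317 and 333 CPM (log2 fold change -0.33, standard error 0.0349, adjusted p = 6.66e-06). Wnt9a was not called against non-treated libraries (adjusted p = 0.652). Spry1, a feedback inhibitor of growth factor signalling (0.43), Errfi1 and the AP-1 member Fosl2 (0.21) rose among 40 tested genes of ERK feedback and early response (7.5%, against 2.09% of all tested genes). With 1 library left out, calls ended for Jag1 (without V1, V3, J1, J2 or J3, adjusted p = 0.0778 to 0.197), Maml1 (without V1, V2, V3, J1 or J2, adjusted p = 0.0812 to 0.194), Lgr5 (without V1, V2, V3, J1 or J2, adjusted p = 0.0754 to 0.169), Fzd4 (without any of the 6, adjusted p = 0.0873 to 0.162), Wnt9a (without any of the 6, adjusted p = 0.0955 to 0.169) and Fosl2 (without V1 or J2, adjusted p = 0.0738 to 0.0932). Another setting ended the calls of Jag1 (DESeq2, adjusted p = 0.0669 and no count filter, adjusted p = 0.0568), Maml1 (the replicate block, adjusted p = 0.0566), Fzd4 (DESeq2, adjusted p = 0.13, no count filter, adjusted p = 0.133 and the replicate block, adjusted p = 0.0607) and Wnt9a (the replicate block, adjusted p = 0.0637).

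Of 27 tested genes of cholesterol synthesis and uptake 5 fell (18.5%, against 2.22% of all tested genes) and none rose (median -0.09). Stard4, a sterol carrier, went from 47.6, 48.9 and 48.8 CPM to 38.6, 40.1 and 40.3 CPM (log2 fold change -0.29, standard error 0.0544, adjusted p = 0.00315), and the synthase Hmgcs1 fell by 0.23 and the oxidase Msmo1 by 0.19 on the log2 scale. No member was called between 100 and 20 µg/mL. The 6 libraries alone gave 10 falls and 1 rise. Of 31 tested genes of fatty acid synthesis and storage (35 in all), Lpl, Me1 and the acyltransferase Gpam (0.20) rose, and Mfsd2a, Fabp5, the monoglyceride lipase Mgll (-0.33) and the synthase Fasn (-0.17) fell. Of 41 tested genes of fatty acid oxidation and the citric acid cycle, Cpt1a, the carnitine transferase of fatty acid import (0.18), and Ogdh, oxoglutarate dehydrogenase (0.17), rose. That is 4.88%, near the 2.09% of all tested genes called higher. Leaving 1 library out ended the calls of Msmo1 (without V2, V3, J1, J2 or J3, adjusted p = 0.0766 to 0.173), Mgll (without V2, V3 or J1, adjusted p = 0.0647 to 0.0939), Fasn (without V1, V2, V3, J1 or J2, adjusted p = 0.0706 to 0.147), Cpt1a (without V1, V3 or J2, adjusted p = 0.069 to 0.109), Ogdh (without V2, V3 or J3, adjusted p = 0.0533 to 0.0744) and Fabp5 (without V3, J2 or J3, adjusted p = 0.0512 to 0.0959).

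Stress and housekeeping programmes differed among themselves. Of 36 tested genes of the integrated stress response 4 rose and 1 fell (median 0.12): Aldh1l2, a mitochondrial folate enzyme (0.29), Vldlr, a lipoprotein receptor (0.41), Psat1, of serine synthesis (0.20), and Slc3a2, an amino acid transporter chain (0.16), rose and Slc7a1, the arginine transporter, fell (-0.27). With the 6 libraries alone 13 rose. Among 30 tested heat shock genes, the small chaperones Hspb7 (0.40) and Hspb8 (0.14) and the HSP70 partner Hsph1 (0.25) rose (10%, against 2.09% of all tested genes). Hspb7 went from 169, 159.8 and 155 CPM to 209, 210.0 and 219.9 CPM (log2 fold change 0.40, standard error 0.0415, adjusted p = 5.68e-06), with no overlap. Calls lost without single libraries were those of Slc3a2 (without V2, V3, J1 or J3, adjusted p = 0.0517 to 0.146), Hspb8 (without V3 or J3, adjusted p = 0.0504 to 0.0509) and Hsph1 (without V1, V2, V3, J1 or J2, adjusted p = 0.051 to 0.0839). No gene was called in either direction, by edgeR's quasi-likelihood test, among 60 nuclear genes of the respiratory chain, 13 mitochondrially encoded mRNAs, 77 cytosolic ribosomal proteins, 41 ribosome biogenesis genes, 36 proteasome genes, 35 lysosome genes, 25 genes of the unfolded protein response, 20 cytosolic aminoacyl-tRNA synthetases or 32 interferon-stimulated genes. Of these 339 genes 18 had an unadjusted p below 0.05, DESeq2 called 1 and the fit of the 6 libraries alone called 11. The largest log2 fold change among the interferon-stimulated members was 0.305. The guanylate-binding genes Gbp4, Gbp6, Gbp8 and Gbp9, which rose by more and are described below, are thus not in that list.

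**Figure D4:**
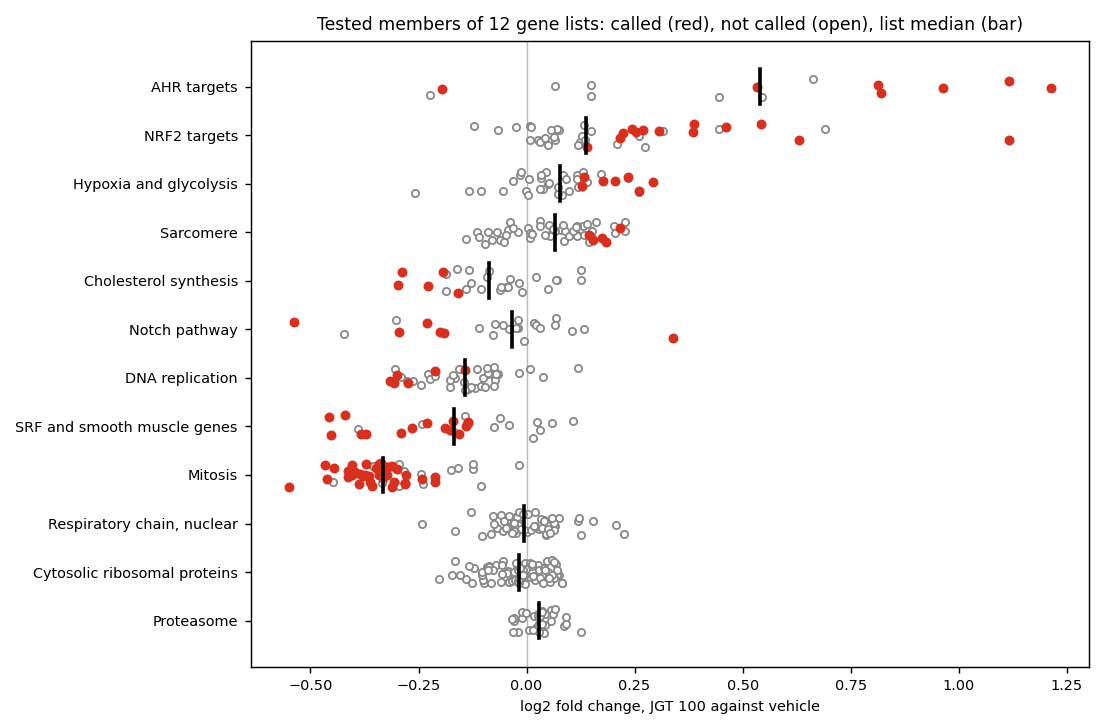
Log2 fold change of JGT 100 µg/mL against vehicle (horizontal axis) for the tested members of 12 gene lists (vertical axis); each point is a gene, red where called and open where not, and the black bar is the list's median. The mitosis list lies wholly below 0, the serum response factor (SRF) list mostly so, and the receptor (AHR) and NRF2 lists lie mostly above it.

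Some genes stood highest or lowest at 100 µg/mL. In 23 of the 302 risen genes the 3 JGT 100 libraries exceeded all 12 others, and in 6 of the 321 fallen genes they fell below all 12. The same was not counted over all tested genes, so these counts have no baseline and are a description only. Greb1 led the first set: at 500 µg/mL it was back to 12.4, 13.6 and 13.2 CPM, lower than at 100 µg/mL (log2 difference -0.38, standard error 0.0693, adjusted p = 0.000529). Thsd4, a secreted thrombospondin-type protein, was at 21.9, 18.8 and 20.96 CPM at 100 µg/mL, 16.5, 14.00 and 15.1 CPM in vehicle, 16.6, 15.4 and 16.6 CPM at 20 and 17.4, 17.1 and 16.6 CPM at 500 µg/mL. Dcn, decorin, was at 247, 241 and 229 CPM at 100 µg/mL, 192, 208 and 197 CPM in vehicle and 218, 208 and 189.7 CPM at 500 µg/mL. Thsd4 and Dcn were called higher at 100 than at 20 µg/mL (adjusted p = 0.0231 and 0.033), as was Scml4, a Polycomb-like protein (adjusted p = 0.0404), and all 3 were lower again at 500 µg/mL (adjusted p = 0.00823, 0.011 and 0.000876). Pcsk6, a proprotein convertase, and Cxcl14, a chemokine, were higher than vehicle at 100 µg/mL (log2 fold change 0.37 and 0.35) and lower at 500 than at 100 µg/mL (-0.70 and -0.38). Both missed the threshold between 100 and 20 µg/mL. Dependent on 1 library were the calls of Scml4 (without V3 or J3, adjusted p = 0.0539 to 0.0737), Pcsk6 (without V3 or J2, adjusted p = 0.0644 to 0.0903), Dcn (without V1, V3, J1 or J2, adjusted p = 0.05 to 0.0608) and Cxcl14 (without any of the 6, adjusted p = 0.0517 to 0.148). In other fits calls ended for Cxcl14 (no count filter, adjusted p = 0.0675).

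On the low side the dips were shallow. Clcn5, a chloride-proton exchanger of endosomes, was at 205, 200.1 and 205 CPM at 100 µg/mL, 223, 229 and 237 CPM in vehicle, 216, 215 and 215 CPM in non-treated, 209, 208 and 206 CPM at 20 and 215, 219.5 and 218 CPM at 500 µg/mL (log2 fold change -0.17, standard error 0.0315, adjusted p = 0.0021). Maf, a bZIP transcription factor, was at 34.9, 35.7 and 34.2 CPM at 100 µg/mL, 41.8, 39.3 and 38.6 CPM in vehicle, 35.96, 36.01 and 36.1 CPM in non-treated and 43.3, 39.1 and 39.5 CPM at 500 µg/mL (log2 fold change -0.19, standard error 0.0470, adjusted p = 0.0202). Snx18, a sorting nexin (-0.20), Ptgis, the prostacyclin synthase (-0.18), and Dip2b (-0.20) were also lowest at 100 µg/mL. None of these 5 was called between 100 and 20 µg/mL, and Maf, Clcn5 and Ptgis were not called against non-treated either (adjusted p = 0.646, 0.131 and 0.242), whereas Snx18, Maf and Clcn5 were higher again at 500 than at 100 µg/mL (adjusted p = 0.0147, 0.00222 and 0.0389). With 1 library left out, calls ended for Maf (without V1, V2, J1 or J3, adjusted p = 0.0567 to 0.127), Snx18 (without any of the 6, adjusted p = 0.0506 to 0.125), Ptgis (without V2, V3, J1 or J2, adjusted p = 0.0588 to 0.0778) and Dip2b (without J2, adjusted p = 0.0596).

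**Figure D5:**
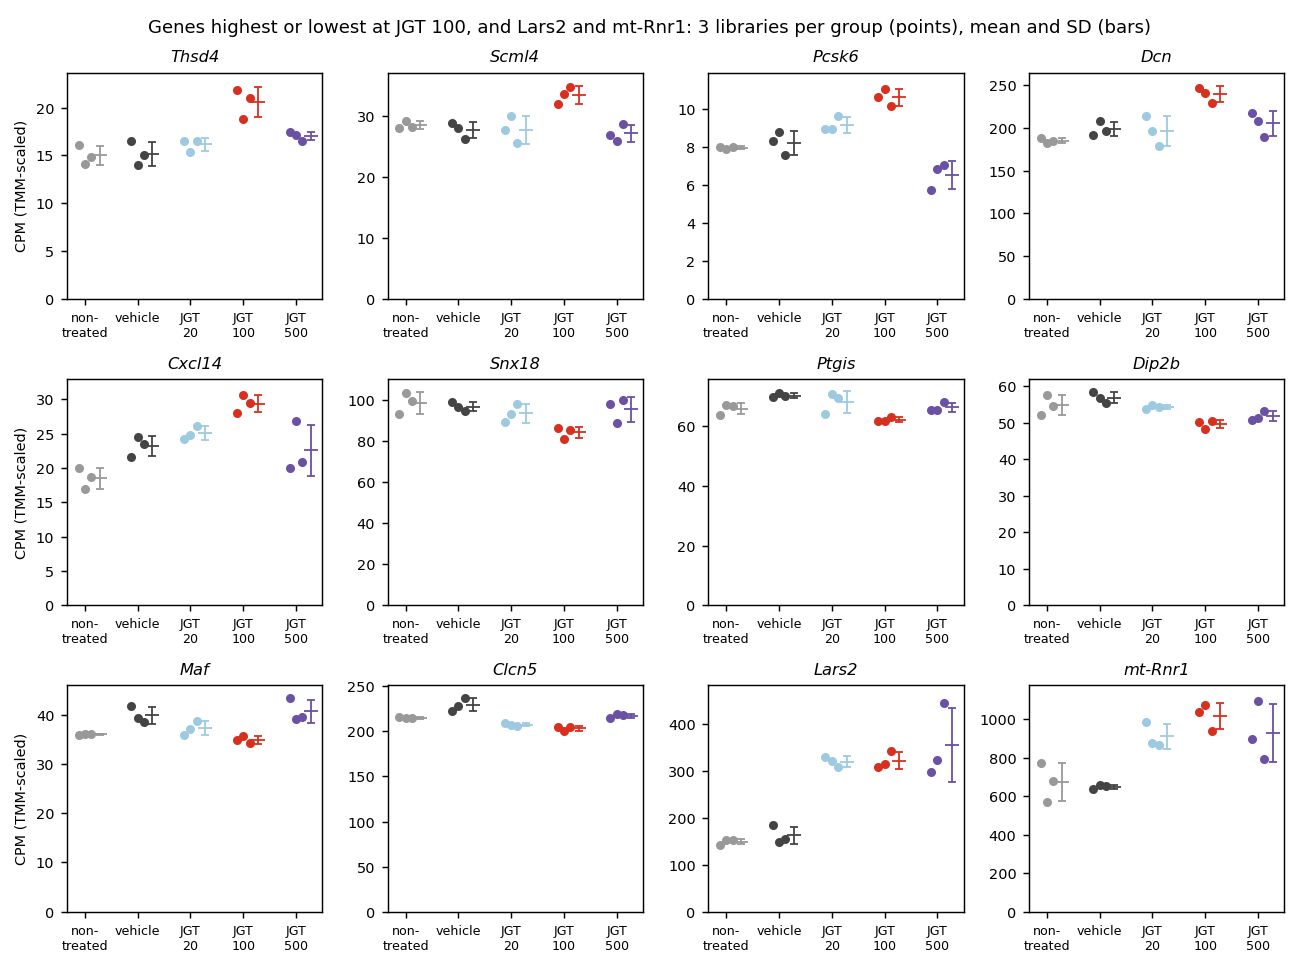
CPM (vertical axis, linear from 0, a scale for each gene) in the 3 libraries of each of 5 groups (horizontal axis; points are libraries, bars the mean and SD) for 5 genes highest and 5 genes lowest at JGT 100 µg/mL, and for Lars2 and mt-Rnr1. The first 5 genes are lower at 500 than at 100 µg/mL and Snx18, Maf and Clcn5 higher, all called, while Ptgis and Dip2b were not called in that step; Lars2 and mt-Rnr1 are higher in all 9 JGT libraries than in all 6 control libraries.

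A few abundant transcripts differed between control and JGT libraries by about the same amount at every dose. Lars2, the mitochondrial leucyl-tRNA synthetase, was at 143, 152 and 153 CPM in non-treated and 184, 149 and 155 CPM in vehicle libraries, and at 330.3, 320.0 and 308, then 307, 315 and 342, then 297, 323 and 444 CPM at 20, 100 and 500 µg/mL. It rose at 100 µg/mL (log2 fold change 0.98, standard error 0.133, adjusted p = 0.00184), and the difference between 100 and 20 µg/mL was 0.01 (standard error 0.130). Mitochondrial ribosomal RNAs showed the same: mt-Rnr2 was at 2172, 2215 and 2225 CPM in vehicle, 3043, 3007 and 2973 CPM at 20 and 3362, 3263 and 3274 CPM at 100 µg/mL (log2 fold change 0.58, standard error 0.0472, adjusted p = 1.76e-07), and mt-Rnr1 at 638, 657 and 654, 987, 877 and 869 and 1038, 1073 and 942 CPM (log2 fold change 0.65, standard error 0.124, adjusted p = 0.0129). Neither was called between 100 and 20 µg/mL (adjusted p = 0.357 and 0.9). The nuclear RNA Malat1 lay at 1405, 1345 and 1443 CPM in vehicle and 1729, 2484 and 1917 CPM at 100 µg/mL (log2 fold change 0.55, adjusted p = 0.0545; with DESeq2, 0.00485, and without J1, 0.0324), and Gm26917, an unnamed transcript of high level, at 366, 340.1 and 326 CPM and 504, 399 and 442 CPM (adjusted p = 0.37). Among 17 tested mitochondrial aminoacyl-tRNA synthetases, Lars2 was the only one to rise and Mars2 the only one to fall (-0.20, adjusted p = 0.0488). That is 5.88% each way, against 2.09% higher and 2.22% lower of all tested genes. Leaving 1 library out ended the calls of mt-Rnr1 (without V1, V3, J1 or J2, adjusted p = 0.0532 to 0.058) and Mars2 (without any of the 6, adjusted p = 0.0593 to 0.239). A change of method ended the call of Mars2 (DESeq2, adjusted p = 0.0706, DESeq2's size factors, adjusted p = 0.0502, no count filter, adjusted p = 0.0576 and the replicate block, adjusted p = 0.0652). For these genes, JGT and the code series of the libraries cannot be told apart. Lars2 and Gm26917 were listed with rRNA-like annotations, and whether their counts include reads of ribosomal RNA was not tested.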

How the data were processed

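Total RNA of C2C12 myotubes was made into directional mRNA libraries and sequenced in paired reads of 100 bp, per the labels' protocols. Per the submitters' processing notes the authors used RSEM 1.3.3, STAR 2.7.3a, Trim Galore 0.6.5 and FastQC 0.11.9 with GRCm38 (mm10); the sources used here give neither the role of each nor the annotation and strand option, so overlapping genes can share counts. The deposited table holds expected counts per gene symbol, not normalized, for 15 libraries of 26012844 to 36854199 counts. Of its values 9.34% were not whole (tolerance 0.005), and all were rounded. Of 42807 symbols, 39311 matched GENCODE M21 and 19006 were 0 everywhere.

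Genes were filtered by filterByExpr, scaled by TMM and fitted over all 15 libraries with edgeR 4.0.16 (R 4.3.3, limma 3.58.1), 1 mean per group, 10 residual degrees of freedom, two-sided quasi-likelihood F test and Benjamini-Hochberg adjustment. CPM values are TMM-scaled. Each library was counted as 1 replicate. Pairs of libraries of 1 group differed by 2.02 to 6.70 in chi-square per gene, above the value near 1 of sampling noise. That excess cannot tell separate cultures from separate preparations of 1 culture. Deviations of same-numbered libraries at 500 and 100 µg/mL from their group means had correlations of 0.107, 0.348 and 0.398 over 10445 genes. Same-numbered JGT 20 and JGT 100 libraries had -0.0939, -0.271 and 0.179. Some differently numbered pairs reached 0.361 (J2 with JGT 20 replicate 1) and 0.382 (J3 with non-treated replicate 2). These values cannot settle whether numbers pair the groups.

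The text names the 12 called genes with the largest rise and fall (mean of at least 5 CPM, proper symbol, no overlap), the 6 and 6 farthest above or below all other libraries (5 of the latter qualified), the 6 most abundant called genes with an absolute log2 change of at least 0.3, the 4 and 4 that turned back at 500 µg/mL, fixed genes, and for each list the 4 members with the smallest p and all members of counts of 5 or fewer. Other members, and Ikbkg, Malat1, Gm26917, Cdkn1a, Srf and the Gbp genes, were named after their values were seen. Some genes that the rule names are not reported here. The members and lists were chosen with earlier results of these data known. Alternatives were DESeq2 1.42.0, its size factors, library totals, no filter, the 6 libraries alone, the replicate block, leaving out each library, and leaving out JGT 500, added after seeing the data.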

Additional observations from a re-analysis of the deposited data

Results flagged for a closer look

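For 13 of the named genes the step from 100 to 500 µg/mL was called in the direction opposite to the change from vehicle to 100 µg/mL, each by edgeR's quasi-likelihood test with Benjamini-Hochberg adjustment. The 2 steps share the 3 JGT 100 libraries and are not independent, and the genes were partly chosen for this turn. Among genes that had risen, the log2 difference of 500 from 100 µg/mL was that of Greb1 (-0.38), Tac4 (-0.37), Thsd4 (-0.27), Scml4 (-0.30), Pcsk6 (-0.70), Dcn (-0.22) and Cxcl14 (-0.38). Among genes that had fallen, it was that of Snx18 (0.18), Maf (0.22), Clcn5 (0.10), Wnt9a (0.27), Pak3 (0.26) and Stard4 (0.19). Of these, Greb1 had the smallest adjusted p at 100 µg/mL against vehicle (1.76e-10), and Greb1, Thsd4, Scml4 and Dcn were also called higher at 100 than at 20 µg/mL. The call of Pak3, a p21-activated kinase, at 100 µg/mL was lost when any 1 of the 6 libraries other than vehicle replicate 3 was left out (adjusted p = 0.0522 to 0.111).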

How the results depend on the processing

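For 100 µg/mL against vehicle, 623 calls became 610 with DESeq2, 622 with DESeq2's size factors, 652 with library totals and 636 without the count filter. The 6 libraries alone gave 1369 (665 higher, 704 lower), and leaving out the JGT 500 group, an alternative added after seeing the data, gave 1168 (563 higher, 605 lower), of which 621 were among the 623. Both fits estimate the spread without the JGT 500 libraries. Leaving out 1 of the 6 gave 315 to 409 calls (135 to 189 higher, 178 to 224 lower). For 100 against 20 µg/mL, 62 calls became 191 with the 6 libraries alone and 19 to 41 with 1 library left out. For 500 against 100 µg/mL, 2853 became 1313 with the 6 libraries alone and 1880 to 4989 with 1 left out, the highest without JGT 500 replicate 2. Against non-treated, 1320 became 836 to 968 with 1 left out. The cause was not tested. Vehicle and JGT 100 libraries share only replicate numbers (correlations of same-numbered libraries -0.0205, 0.167 and -0.184). The replicate block gave 582 calls (284 higher, 298 lower), 61 against 20 µg/mL and 2731 for 500 against 100 µg/mL. No named gene changed direction in a fit where it was called. Genes below 1 CPM, Gbp4 and Gbp8 among them, rest on few counts, and groups of 3 libraries limit the precision of small changes.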

Other observations

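Guanylate-binding proteins are GTPases of cell-autonomous immunity, and those of the chromosome 5 cluster were among the larger rises at low level. They were picked after their values were seen. Gbp9 lay at 0.642, 0.617 and 0.708 CPM in vehicle, 0.994, 0.817 and 0.883 CPM at 20 µg/mL and 1.85, 2.34 and 1.63 CPM at 100 µg/mL (log2 fold change 1.55, standard error 0.191, adjusted p = 3.69e-05, edgeR), and it was higher at 100 than at 20 µg/mL (adjusted p = 0.00346). Gbp6 went from 0.473, 0.579 and 0.169 CPM to 1.29, 1.10 and 1.41 CPM (log2 fold change 1.65, standard error 0.313, adjusted p = 0.00318), and was also higher at 100 than at 20 µg/mL (adjusted p = 0.033). Gbp8 lay at 0.135, 0.309 and 0.101 CPM in vehicle and 0.739, 0.687 and 0.469 CPM at 100 µg/mL, and Gbp4 at 0.0676, 0.116 and 0 CPM and 0.585, 0.220 and 0.441 CPM, levels below 1 CPM, and DESeq2 gave no adjusted p for either. Of the relatives on chromosome 3, Gbp2 was at 2.16, 2.43 and 3.07 CPM in vehicle and 2.40, 2.78 and 2.43 CPM with JGT (log2 fold change -0.01, standard error 0.159, adjusted p = 0.986), and Gbp3, Gbp5 and Gbp7 were not called either (adjusted p = 0.635, 0.154 and 0.868). Members of the family resemble each other and some overlap, so their separate counts are uncertain. Leaving out 1 library at a time ended some calls, that of Gbp8 without vehicle replicate 1 or 3 or JGT 100 replicate 1 or 2 (adjusted p = 0.0685 to 0.12) and that of Gbp4 without vehicle replicate 1 or 3 or JGT 100 replicate 1 or 3 (adjusted p = 0.0787 to 0.14).

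Of the 7 tested adipocyte markers (16 in all), Lpl alone was called, and the list's median was 0.21. Of 27 tested chemokine and NF-kB genes 3 rose: Csf2rb, the chemokine Ccl7 (0.49, adjusted p = 0.0133) and the chemokine Cxcl5 (1.68, adjusted p = 0.045), the last at 0.169, 0.270 and 0.270 CPM in vehicle. Leaving out 1 library at a time ended some calls, that of Ccl7 without vehicle replicate 1 or 3 or JGT 100 replicate 1 (adjusted p = 0.0605 to 0.0891) and that of Cxcl5 without any 1 of the 6 libraries (adjusted p = 0.0964 to 0.173). The call of Cxcl5 was also lost without the count filter (adjusted p = 0.0588) and with the replicate block (adjusted p = 0.0577). Of 21 tested clock genes Bhlhe41, a repressor, fell (-0.19, adjusted p = 0.00336), which is 4.76% against 2.22% of all tested genes.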
